A study of Mus musculus with 24 samples.

Results

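Tight junction genes of the epidermis were followed in whole dorsal skin of E18.5 (embryonic day 18.5) mice with both copies, 1 copy or no copy of the desmoglein 1 (Dsg1) gene cluster. The 9 genes were chosen by name as claudins, occludin, the junctional adhesion molecule JAM-A and scaffold proteins: Cldn1, Cldn3, Cldn4, Cldn7, Ocln, F11r, Tjp1, Tjp3 and Cgn. Earlier results of these data were known when they were chosen. All 9 were found among the 54087 gene symbols of the count table, and all 9 were among the 17094 genes with enough counts to be tested.

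Tight junctions seal the space between neighbouring epithelial cells. In the epidermis they lie in the granular layer, below the cornified layer, where claudins and occludin form strands in the membrane, JAM-A sits beside the strands, and the ZO proteins and cingulin tie them to actin. Mice without claudin-1 lose water through the skin and die soon after birth.

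The embryos came from a C57BL/6J line in which the tandem genes Dsg1a, Dsg1b and Dsg1c were deleted with CRISPR/Cas9. The deletion was carried by a single founder and was present in every tissue, so it was not limited to keratinocytes. The genotypes were WT (wild type), HET (1 deleted copy) and KO (both copies deleted), with no treatment. Each had 8 poly(A) RNA libraries, and libraries with the same number in their title were summed into 5 columns per genotype. The title number was taken as the embryo, which the labels do not state, so the p-values measure the spread between these columns.

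The 24 libraries held 8.98 to 20.96 M counts (M, mega) and the 15 columns 15.3 to 33.7 M. The summed level of the 3 Dsg1 genes was 723 to 933 CPM (counts scaled to library size) in WT, 371 to 492 CPM in HET and 0.103 to 0.902 CPM in KO, which matched the labels. The 8 epithelial markers summed to 7862 to 10956 CPM over the 15 columns, the 8 fibroblast markers to 14897 to 36991 CPM and the 7 skeletal muscle markers to 9544 to 21254 CPM, so the tissue held epidermis, dermis and muscle. In bulk tissue, fewer cells of a type and less RNA per cell cannot be told apart. The 2 libraries of WT replicate 2 went against a single embryo: Y-linked genes summed to 325 CPM in one and 0.154 CPM in the other, while Xist was at 0.264 and 564 CPM. KO replicate 4, a single library, stood apart in the lowest-expressed claudins. Fold changes of the 9 genes that rested mainly on 1 of these columns are given with and without it in the fit without covariates.

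Cldn3 and Cldn4 are neighbours on chromosome 5, with start sites 39280 bases apart, and F11r on chromosome 1 had the smallest p of the 9 genes in KO vs WT. The 250 bases before the start of each of these 3 genes are shown because 2 of them held the letters TGANTCA, the core that AP-1 factors are known to bind, and the third, Cldn3, did not. The sequences are from RefSeq (GRCm38.p6), 5′ to 3′ along the strand of the gene, and capitals mark TGANTCA, which reads the same on both strands.
Cldn4, chr5:134946935-134947184, minus strand: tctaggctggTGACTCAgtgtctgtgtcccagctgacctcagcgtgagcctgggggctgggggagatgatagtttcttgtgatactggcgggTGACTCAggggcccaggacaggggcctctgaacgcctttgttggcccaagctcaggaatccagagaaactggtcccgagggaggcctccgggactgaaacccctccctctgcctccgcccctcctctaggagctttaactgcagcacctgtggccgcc
Cldn3, chr5:134985964-134986213, plus strand: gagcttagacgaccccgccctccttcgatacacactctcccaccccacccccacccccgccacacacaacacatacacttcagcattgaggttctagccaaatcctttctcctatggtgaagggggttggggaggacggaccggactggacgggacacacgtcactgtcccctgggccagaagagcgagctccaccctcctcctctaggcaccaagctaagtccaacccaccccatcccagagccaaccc
F11r, chr1:171437311-171437560, plus strand: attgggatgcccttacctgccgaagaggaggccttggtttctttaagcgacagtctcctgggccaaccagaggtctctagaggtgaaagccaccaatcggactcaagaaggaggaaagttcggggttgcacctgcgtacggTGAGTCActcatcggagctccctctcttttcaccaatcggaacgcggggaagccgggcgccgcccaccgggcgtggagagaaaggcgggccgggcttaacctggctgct
The Cldn4 sequence held 2 copies, beginning 240 and 158 bases before the start, and the F11r sequence held 1, beginning 109 bases before it. Of 32851 mouse promoters cut to the same length, 6.75% held TGANTCA. Among the 9 genes only Cldn4 and F11r held it, and the sequences of all the other members held none. None of the 12 sequences of the 9 genes held TATAAA, which 12.4% of promoters did, and 1 (Cgn) held AACCNGTT, a core known for grainyhead factors, which 1.79% did. These matches describe letters and not binding. The remaining genes lie on chromosome 16 (Cldn1), 11 (Cldn7), 13 (Ocln), 7 (Tjp1), 10 (Tjp3) and 3 (Cgn).

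Claudin-4 and claudin-1 were the most abundant members once gene length was taken into account. In WT skin the mean level per kilobase of exon was 48.5 ± 7.13 CPM per kb for Cldn4 and 35.0 ± 5.59 for Cldn1 (SD, n = 5). F11r followed at 28.2 CPM per kb, Tjp1 at 14.6, Tjp3 at 12.4, Cgn at 5.70 and Ocln at 4.43. Cldn3 and Cldn7 were close to the bottom of the range, at 0.519 and 0.474 CPM per kb. The order held in 14 of 15 columns for Cldn4 over Cldn1 and for Cldn1 over F11r, and in all 15 for F11r over Tjp1, Tjp3 over Cgn and Ocln over Cldn3. It was looser for Tjp1 over Tjp3 and for Cgn over Ocln, in 12 columns each. Cldn3 and Cldn7 changed places between columns, with Cldn3 higher in 9 of 15, and in 4 of 15 when the longest transcript set the length. The neighbours Cldn3 and Cldn4 thus stood near opposite ends of the range.

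Among 23 claudin genes in the table, Cldn1 and Cldn4 together held 55.2% ± 3.30 of the claudin level per kb in WT, 52.6% ± 5.68 in HET and 59.6% ± 3.53 in KO (SD, n = 5 each). The next claudins in WT were Cldn5, the claudin of endothelial cells, with 18.9%, Cldn23 with 12.4% and Cldn12 with 4.39%. Cldn3 held 0.348% and Cldn7 0.318%.

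**Figure D1:**
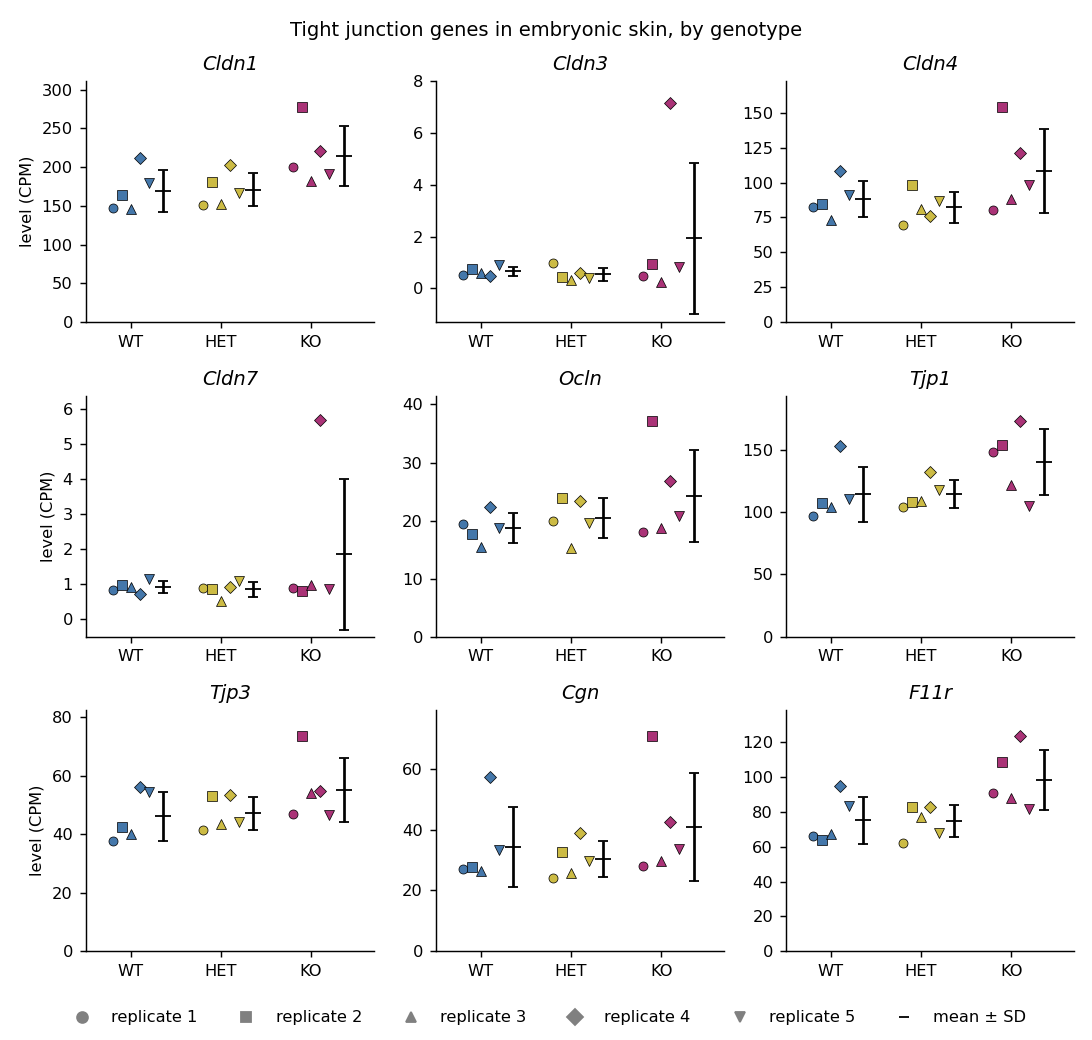
Level (CPM, linear axis) of each of the 9 genes in the 5 columns of each genotype, with marker shape giving the replicate and black bars the mean ± SD. In every panel KO points overlap WT points, and in the Cldn3 and Cldn7 panels KO replicate 4 lies alone at 7.14 and 5.71 CPM.

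The first comparison asked which tight junction genes differed when Dsg1 was lost. In KO vs WT all 9 genes had a positive log2 fold change, from 0.25 (Cgn) to 1.52 (Cldn3), with a median of 0.34 against a median of -0.01 over all 17094 genes tested. None passed the test: 0 of 9 were called (an adjusted p not above 0.1 in edgeR's quasi-likelihood test), against 1.15% of all genes. At an unadjusted p under 0.05 there were 3 of 9 (F11r, Cldn1 and Tjp1), against 19.3% of all genes in either direction and 10.1% that were higher in KO. DESeq2 called 1 of the 9 (F11r, adjusted p = 0.0854), against 8.49% of all genes, and limma-voom called 0 of the 9, against 2.89%. A log2 fold change above 0 was found for 48.6% of all genes. The 9 genes were chosen with earlier results of these data known, so this contrast is a description and not a test. Outside the 9, 4 of 12 other claudins tested and 25 of 29 other tight junction proteins were positive. The 9 of 9 above 0 became 7 without KO replicate 4 and 8 without KO replicate 2. For 0 of the 9 genes were all KO columns above or below all WT columns, which was so for 3.37% of genes. The adjusted p-values of the 9 ran from 0.149 to 0.621, and the thresholds stated by the study, which also ask for a log2 fold change of 1, gave 0 of 9 against 0.322% of genes.

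Cldn1 encodes claudin-1, the main barrier claudin of the epidermis. Its level in WT replicates 1 to 5 was 147, 164, 145, 211 and 179.9 CPM. In HET it was 151, 181, 152, 202 and 167 CPM, and in KO it was 200.04, 278, 181, 221 and 191 CPM. Every KO column lay above the WT median, but only 2 lay above the highest WT column, WT replicate 4. The mean was 169.6 ± 27.1 CPM in WT and 214 ± 38.4 CPM in KO (SD, n = 5), a log2 fold change of 0.34 (SE 0.13, 95% interval 0.06 to 0.61). The unadjusted p was 0.0197 and the adjusted p 0.185 by edgeR.

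Cldn4 encodes claudin-4, which is found in the granular layer. It was at 82.8, 84.9, 73.4, 108 and 90.8 CPM in WT, at 69.9, 98.6, 80.8, 75.7 and 86.8 CPM in HET, and at 80.3, 154, 88.1, 121 and 98.4 CPM in KO. KO replicates 2 and 4 were high and the other 3 KO columns lay within the WT range. The log2 fold change was 0.30 (SE 0.16, adjusted p = 0.303, edgeR), and it was 0.14 without KO replicate 2. Cldn4 also differed most between the 2 libraries of WT replicate 2, by 0.58 on the log2 scale, against at most 0.12 in the 8 other numbers with 2 libraries. Without WT replicate 2 its log2 fold change was 0.29.

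Ocln encodes occludin, a membrane protein of the strands. Its level was 19.4, 17.6, 15.4, 22.4 and 18.7 CPM in WT, 19.95, 23.9, 15.3, 23.3 and 19.5 CPM in HET and 18.003, 37.1, 18.6, 26.8 and 20.9 CPM in KO. KO replicate 2 lay far above the rest, and 3 KO columns were inside the WT range. The log2 fold change was 0.38 (SE 0.18, adjusted p = 0.271, edgeR), and it was 0.17 without KO replicate 2.

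F11r encodes JAM-A, an immunoglobulin-type adhesion protein. In WT it was at 66.3, 63.8, 67.3, 94.97 and 83.1 CPM, in HET at 62.4, 82.9, 76.8, 83.0 and 67.9 CPM, and in KO at 90.9, 109, 87.7, 124 and 81.5 CPM. All 5 KO columns lay above the WT median, and 4 of them above every HET column, but 2 WT columns reached into the KO range. The mean was 75.1 ± 13.5 CPM in WT and 98.4 ± 17.2 CPM in KO, and the log2 fold change of 0.39 (SE 0.13, 95% interval 0.11 to 0.67) had an adjusted p of 0.149 by edgeR. This was the smallest adjusted p among the 9 genes. The call depended on the handling of WT replicate 2: with its 2 libraries as separate columns F11r was called (0.43, adjusted p = 0.0816, edgeR), and without that column it was not (0.34, adjusted p = 0.292). The calls over all genes moved as well, from 1.15% to 7.18% with separate columns and to 0.17% without that column.

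Tjp1 encodes ZO-1, the scaffold that links claudins and occludin to actin. It was at 96.5, 107, 104, 153 and 111 CPM in WT, at 104, 108, 109, 132 and 118 CPM in HET and at 148, 153, 121, 173 and 105 CPM in KO. WT replicate 4 stood well above the other WT columns, and KO replicate 5 was the lowest KO column. The log2 fold change was 0.30 (SE 0.14, unadjusted p = 0.0485, adjusted p = 0.256, edgeR), and it was 0.21 without KO replicate 4, the highest KO column.

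Tjp3 encodes ZO-3, a scaffold of the same family that is limited to epithelia. Its WT levels were 37.6, 42.5, 40.1, 56.0 and 54.2 CPM, its HET levels 41.3, 52.9, 43.5, 53.5 and 44.3 CPM and its KO levels 46.9, 73.5, 54.0, 54.8 and 46.7 CPM. Only KO replicate 2 exceeded the WT range. The log2 fold change was 0.26 (SE 0.14, adjusted p = 0.310, edgeR), or 0.13 without that column.

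Cgn encodes cingulin, a coiled-coil protein that binds ZO-1 and actomyosin. It was at 26.9, 27.8, 26.3, 57.2 and 33.3 CPM in WT, at 24.1, 32.6, 25.7, 38.97 and 29.8 CPM in HET and at 27.9, 70.7, 29.5, 42.4 and 33.5 CPM in KO. A single column was high in each of WT and KO, so the spread was wide in both. The log2 fold change of 0.25 (SE 0.27, adjusted p = 0.621, edgeR) turned to -0.04 without KO replicate 2 and was 0.51 without WT replicate 4.

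**Figure D2:**
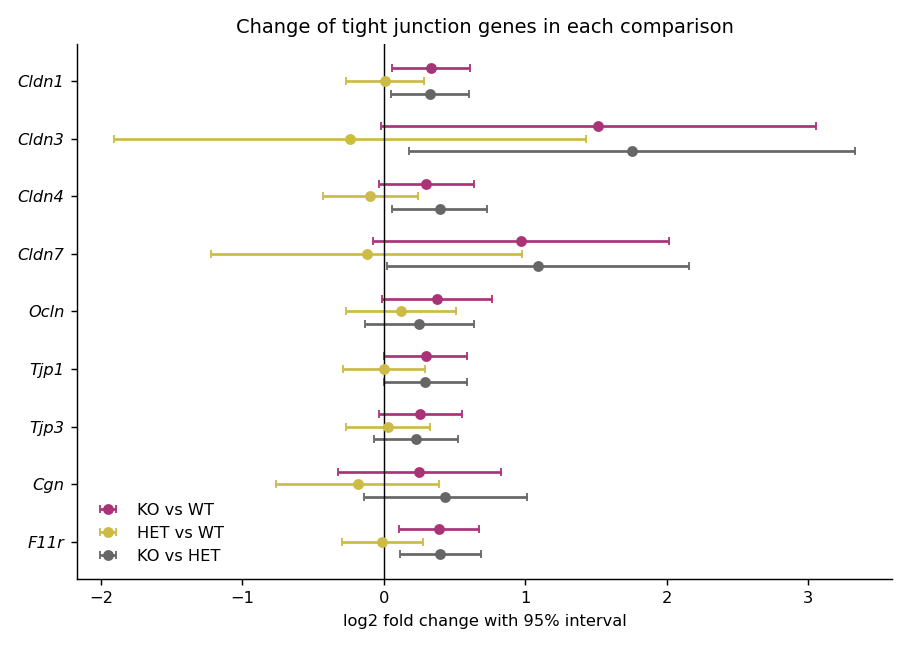
Log2 fold change (points) with 95% interval (lines) of each gene from the edgeR fit in KO vs WT, HET vs WT and KO vs HET. The KO vs WT points lie between 0.25 and 0.39 for 7 genes, while the intervals of Cldn3 and Cldn7 are several times wider.

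Cldn3 and Cldn7 encode claudins typical of simple and glandular epithelia, and their large fold changes came from KO replicate 4. Cldn3 was at 0.534, 0.753, 0.601, 0.473 and 0.906 CPM in WT, at 0.976, 0.446, 0.331, 0.586 and 0.383 CPM in HET, and at 0.481, 0.959, 0.255, 7.14 and 0.809 CPM in KO. Cldn7 was at 0.825, 0.985, 0.917, 0.728 and 1.16 CPM in WT, at 0.879, 0.856, 0.515, 0.911 and 1.101 CPM in HET, and at 0.902, 0.811, 0.979, 5.71 and 0.857 CPM in KO. In both genes KO replicate 4 was above all the other columns, and the other 4 KO columns overlapped WT and HET. With it, the log2 fold change in KO vs WT was 1.52 for Cldn3 (SE 0.72, adjusted p = 0.265, edgeR) and 0.97 for Cldn7 (SE 0.49, adjusted p = 0.292). Without it, the values were -0.06 and -0.05. In counts, Cldn3 had 139 in KO replicate 4 and at most 30 in any other column, and Cldn7 had 111 against at most 34.

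Other genes were high in the same library. Krt18, a keratin of simple epithelia, was at 93.5 CPM in KO replicate 4 and at most 2.67 CPM in the other 14 columns. Krt8, its partner, was at 106 against at most 6.19 CPM, Krt19 at 120 against 6.40 CPM and Krt7 at 95.1 against 11.03 CPM. Msln, which encodes mesothelin and marks the lining of body cavities, was at 72.1 against at most 4.48 CPM. A list of 6 mesothelial markers, chosen after the data had been seen, summed to 152 CPM in KO replicate 4 and at most 36.1 CPM in the other KO columns. The members of that list did not move alike: Upk3b (22.7 against at most 2.26 CPM), Wt1 (5.91 against 0.910 CPM) and Muc16 (24.7 against 2.01 CPM) were high in KO replicate 4, while Bnc1 (26.1 against 35.0 CPM) and Lrrn4 (0.360 against 0.883 CPM) were not. The 4 intestinal markers examined in the same way also had their highest sum in KO replicate 4, 12.3 CPM against at most 5.96 CPM in the other KO columns, 8.62 CPM in WT and 9.42 CPM in HET. Of these, Vil1 (2.88 against at most 1.18 CPM) and Lgals4 (9.05 against 8.09 CPM) were highest there, Cdh17 (0.360 against 0.667 CPM) was not, and the defining factor Cdx2 had no count. The 4 lung markers summed to at most 2.22 CPM in any column, and Sftpb and Nkx2-1 had no count in KO replicate 4. The part of another tissue in the Cldn3 and Cldn7 values was not tested.

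**Figure D3:**
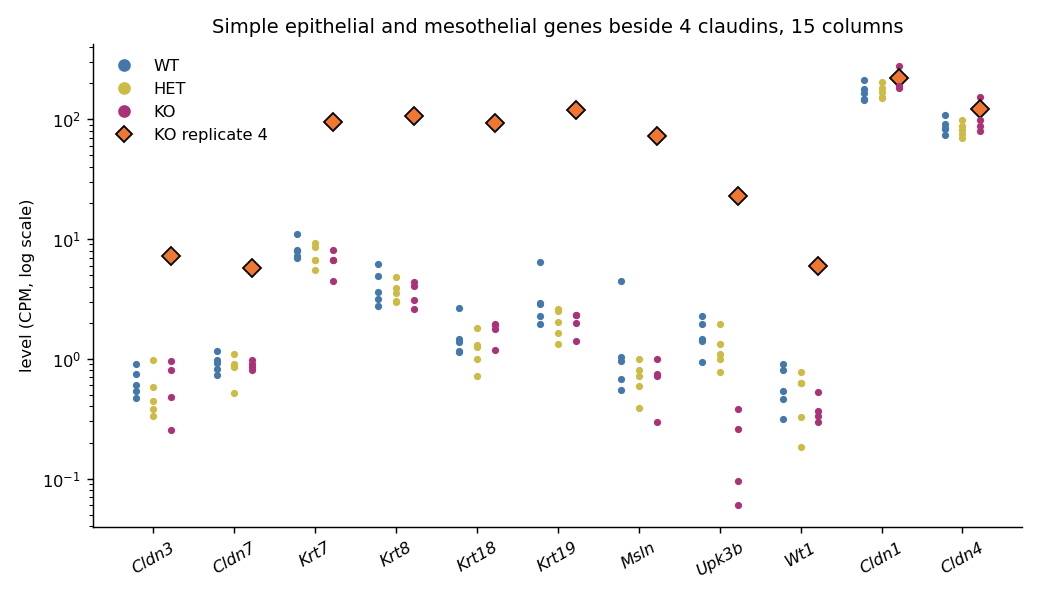
Level (CPM, log axis) of simple epithelial keratins, mesothelial genes and 4 claudins in 15 columns, coloured by genotype, with KO replicate 4 as an orange diamond. KO replicate 4 lies far above the other columns for Cldn3, Cldn7, Krt18 and Msln, and within the KO range for Cldn1 and Cldn4.

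Single columns carried the highest values of several genes at a time. WT replicate 4 was the highest WT column for 7 of the 9 genes, and in KO the highest column was replicate 2 for 5 genes and replicate 4 for 4. WT replicate 4 also had the highest WT sum of 11 granular layer markers, 82872 CPM against 72598 in the next column, and KO replicate 2 the highest KO sum, 109458 against 80761 CPM. Without WT replicate 4, edgeR called 3 of the 9 genes in KO vs WT: Cldn1 (0.43), F11r (0.49) and Tjp1 (0.42). Over all genes 1660 were then called, or 9.74%, against 197 with every column. Without KO replicate 5 it called F11r (0.45) and Tjp1 (0.38), with 1878 genes called in all, or 10.9%. Leaving out any of the other 13 columns on its own gave 0 calls. In the libraries of the first title format alone, 3 per genotype, the KO vs WT log2 fold changes were 0.32 for Cldn1, 0.37 for F11r and 0.19 for Tjp1, and in those of the second format alone, 5 per genotype, they were 0.34, 0.36 and 0.30.

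**Figure D4:**
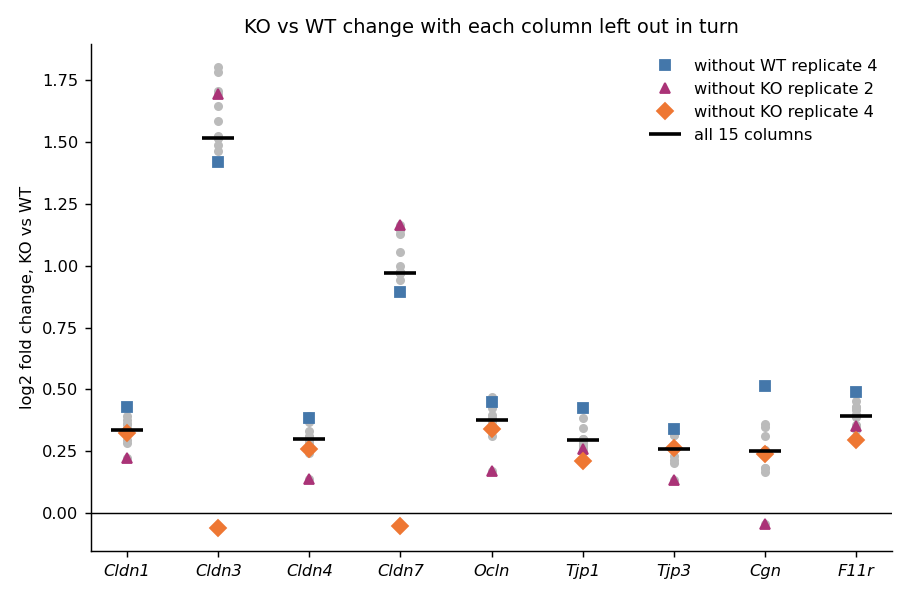
KO vs WT log2 fold change of each gene with all 15 columns (black bars) and with each column left out in turn (points), with 3 omissions coloured. Cldn3 and Cldn7 drop to -0.06 and -0.05 without KO replicate 4, and Cldn1, Tjp1 and F11r move to 0.43, 0.42 and 0.49 without WT replicate 4.

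Markers of the epidermis itself had a higher mean in KO than in WT, although edgeR called 0 of 8 (3 higher at an unadjusted p under 0.05), limma-voom 1 (Sfn) and DESeq2 2 (Sfn and Esrp1). Over all genes, 10.1% were higher at that unadjusted p, and limma-voom called 2.89% and DESeq2 8.49%. The mean log2 CPM of 8 epithelial markers was 8.94 ± 0.10 in WT, 8.92 ± 0.20 in HET and 9.14 ± 0.15 in KO (SD, n = 5 each). The log2 level relative to these markers in the same column was higher in KO than in WT by 0.18 for F11r, 0.13 for Cldn1, 0.11 for Ocln, 0.09 for Tjp1, 0.06 for Cldn4, 0.05 for Tjp3 and 0.02 for Cgn, and by 0.23 for Cldn3 and 0.14 for Cldn7 with KO replicate 4 included. In a fit with the epithelial score as a covariate, the KO vs WT log2 fold changes were 0.19 for F11r, 0.09 for Cldn1 and Tjp1, 0.10 for Cldn4, 0.06 for Ocln, 0.01 for Tjp3, -0.21 for Cgn, 1.61 for Cldn3 and 0.98 for Cldn7, all with KO replicate 4 included. By this fit 0 of 9 were called, with 48 genes called in all, against 197 without the covariate. At an unadjusted p under 0.05 by edgeR there were 0 of 9, against 10% of all genes. All 11 granular layer markers had positive log2 fold changes in KO vs WT, with a median of 0.32, and 7 were higher at an unadjusted p under 0.05 (edgeR). One of them was called, Ivl (0.76, adjusted p = 0.0231, edgeR), the cornified envelope precursor involucrin. Over all genes 48.6% were positive, 10.1% were higher at that unadjusted p and edgeR called 1.15%. The Ivl call was lost with the epithelial covariate (0.63, adjusted p = 0.120, edgeR), with only both genotypes compared (0.77, adjusted p = 0.127) and in the first title format alone (0.69, adjusted p = 0.551). DESeq2 and limma-voom also called Flg, which encodes profilaggrin. All 8 fibroblast markers were negative, with a median of -0.24 and 0 called by edgeR (1 at an unadjusted p under 0.05) or limma-voom and 1 by DESeq2 (Twist2). Over all genes 19.3% had an unadjusted p under 0.05 in either direction by edgeR. These fits cannot separate the amount of epidermis from the level per cell, because the score was itself higher in KO. The part of the amount of epidermis in the member values was not tested.

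With a single copy lost, none of the members passed the test. In HET vs WT the log2 fold changes ran from -0.24 (Cldn3) to 0.12 (Ocln), with 4 of 9 above 0 against 50.9% of all genes. The HET and WT columns overlapped for all 9, and were apart for 0.374% of all genes. No member was called by edgeR, DESeq2 or limma-voom, and 0 of 9 had an unadjusted p under 0.05, while edgeR called 0% of all genes and 1.58% had an unadjusted p under 0.05. DESeq2 called 3 genes in all and limma-voom 0. For Cldn1 the log2 fold change was 0.01 (95% interval -0.27 to 0.28), for Tjp1 0.00 (-0.29 to 0.29) and for F11r -0.01 (-0.29 to 0.27). The intervals were wider for Ocln (-0.26 to 0.51), Cldn4 (-0.43 to 0.24), Cgn (-0.76 to 0.39), Cldn7 (-1.22 to 0.98) and Cldn3 (-1.91 to 1.43). Differences between HET and WT within these intervals were not excluded with 5 columns.

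KO vs HET gave fold changes of similar size to KO vs WT, with which it shares the KO columns, as HET vs WT shares the WT columns. All 9 genes were positive (against 49.3% of all genes), with a median of 0.40. The choice of the 9 with earlier results known limits this contrast too. By edgeR 0 of 9 were called, against 0.333% of all genes, and 6 of 9 had an unadjusted p under 0.05 (Cldn1, Cldn3, Cldn4, Cldn7, F11r and Tjp1), against 16% of all genes in either direction and 8.17% that were higher in KO. Without KO replicate 4 there were 2 of 9 (Cldn1 and F11r), against 12.5% of all genes, and without KO replicate 2 there were 3 of 9 (Cldn3, Cldn7 and F11r), against 14.4%. With the epithelial score as a covariate there were 0 of 9, against 5.96% of all genes. In that fit 6 of 9 were positive, against 52.9% of all genes. The KO and HET columns overlapped for all 9 genes, and were apart for 2.25% of all genes. DESeq2 and limma-voom also called 0 of 9, with 790 genes called in all by DESeq2 and 78 by limma-voom. Cgn was at 0.44 (SE 0.27, adjusted p = 0.441, edgeR). F11r was at 0.40 (SE 0.13, adjusted p = 0.188), Cldn4 at 0.40 (SE 0.16, adjusted p = 0.247), and Cldn1 at 0.33 (SE 0.13, adjusted p = 0.242). Without KO replicate 2 the values were 0.14 for Cgn, 0.23 for Cldn4, 0.04 for Ocln (0.25 with it), 0.21 for Cldn1 and 0.36 for F11r. Without KO replicate 4, Cldn3 was at 0.18 and Cldn7 at 0.07 in this comparison, against 1.75 and 1.09 with it.

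The other genes of the pathway were taken from lists drawn up by function. Of 21 other claudins, 19 were in the table, 4 of these had no count in any library (Cldn16, Cldn18, Cldn22 and Cldn24), and 12 were tested. In KO vs WT their median log2 fold change was -0.10, 4 of 12 were positive and edgeR called 0, with 0 higher and 2 lower at an unadjusted p under 0.05. These were Cldn2, a channel-forming claudin of leaky epithelia, with 4.43 ± 0.646 CPM in WT and 2.90 ± 0.895 CPM in KO (log2 fold change -0.61, adjusted p = 0.157, edgeR), and the sparsely counted Cldn9 (-0.75). DESeq2 called Cldn2 and limma-voom called 0 of the list, against 8.49% and 2.89% of all genes.

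Of 29 other tight junction proteins, all tested, 25 had positive log2 fold changes in KO vs WT, with a median of 0.13. EdgeR called 0 of 29, with 9 higher and 1 lower (Arhgef2) at an unadjusted p under 0.05. Over all genes 48.6% were positive, edgeR called 1.15%, and 10.1% were higher at that unadjusted p. DESeq2 called 5 of 29, among them Cxadr, Epcam, Lsr and Magi3, against 8.49% of all genes, and limma-voom 0, against 2.89%. The largest edgeR values were for Cgnl1, the cingulin relative paracingulin (0.60, adjusted p = 0.210), Pard6b, a polarity protein (0.51, adjusted p = 0.186), and Cxadr, the adhesion receptor CAR (0.47, adjusted p = 0.107). The KO mean of Cgnl1, 37.2 ± 18.8 CPM, rested in part on KO replicate 4 at 69.6 CPM, and without that column its log2 fold change was 0.24 (adjusted p = 0.484, edgeR). Cxadr lay between 64.3 and 72.3 CPM in WT and between 72.9 and 123 CPM in KO, with no overlap, as for 3.37% of all genes. Without KO replicate 4 its log2 fold change was 0.37.

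Of 10 regulators of epithelial junction genes, 9 were tested, with 8 positive in KO vs WT, a median log2 fold change of 0.38 and 5 higher at an unadjusted p under 0.05. Over all genes 48.6% were positive and 10.1% were higher at that unadjusted p. Grhl3, a grainyhead factor needed for the skin barrier, was the only one of these lists called by edgeR. It was at 49.2, 53.2, 55.6, 58.2 and 56.2 CPM in WT, at 49.4, 67.0, 51.2, 68.2 and 62.5 CPM in HET and at 88.3, 119, 92.5, 94.1 and 68.3 CPM in KO. All KO columns lay above all WT and HET columns, although KO replicate 5 was only just above HET replicate 4. Over all genes, KO and WT columns were apart for 3.37%, and KO and HET columns for 2.25%. Grhl3 rose by 0.76 on the log2 scale in KO vs WT (SE 0.13, edgeR adjusted p = 0.0184), and by 0.63 in KO vs HET (SE 0.13, edgeR adjusted p = 0.0733). With the epithelial score as a covariate the KO vs WT value was 0.51 (adjusted p = 0.0419, edgeR), and in the first title format alone, 3 libraries per genotype, it was 0.88 and not called (adjusted p = 0.377, edgeR). The KO vs HET call was lost without any 1 of 7 columns (WT replicates 2 and 3, HET replicates 1, 3 and 5, KO replicates 1 and 4), with adjusted p-values from 0.111 to 0.227 by edgeR, with the epithelial covariate (0.37, adjusted p = 0.247), with the length covariate (0.58, adjusted p = 0.184), with only both genotypes compared (0.63, adjusted p = 0.218) and in the first title format alone (0.83, adjusted p = 0.249). Ovol1, a repressor of epidermal proliferation, and Esrp1, an epithelial splicing factor, had values of 0.51 (adjusted p = 0.102) and 0.44 (adjusted p = 0.150) in KO vs WT. DESeq2 called Ovol1, Esrp1 and Grhl1 beside Grhl3, and limma-voom called Ovol1 beside it. Esrp1 was also among the epithelial markers.

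**Figure D5:**
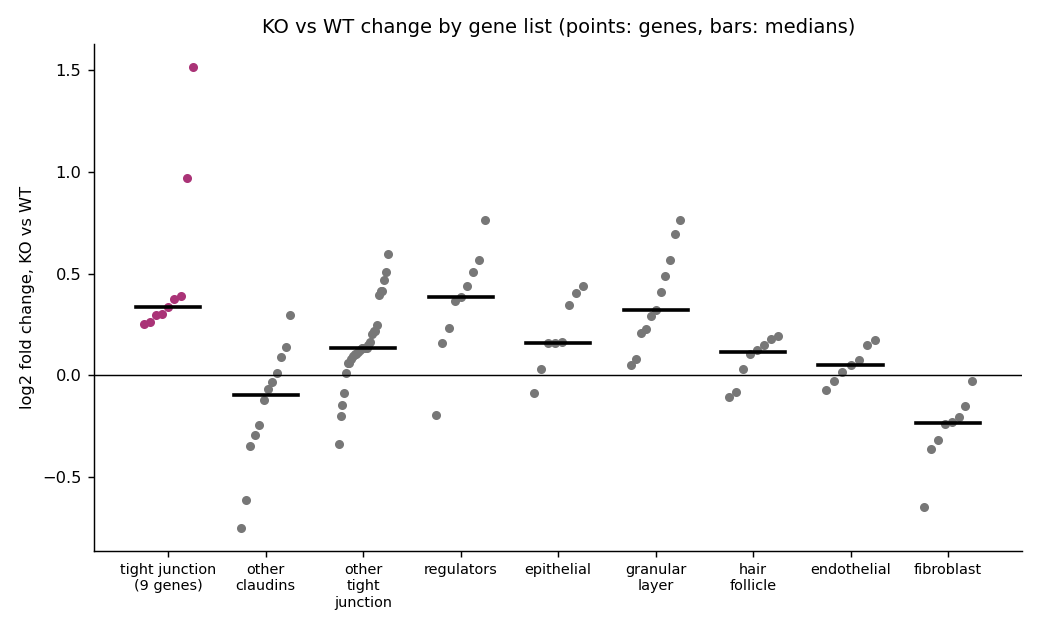
KO vs WT log2 fold change of every tested gene (points) in the 9 tight junction genes and 8 other lists, with bars at the medians. The medians are 0.34 for the 9 genes, -0.10 for other claudins, 0.13 for other tight junction proteins, 0.38 for regulators, 0.32 for granular layer markers and -0.24 for fibroblast markers.

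Profiles over the 15 columns were compared by the mean absolute difference between log2(CPM + 1) values, each gene centred and scaled to an SD of 1, for the 15059 genes whose mean count was at least 20. As a description, the genes most like Cldn1 were Slc37a2 (0.177) and Scamp1 (0.182), those most like Tjp1 were Rbms1 (0.167) and Wnk1 (0.169), and those most like F11r were Atp6v1b2 (0.236) and Cecr2 (0.237). Cldn4 was nearest to Lsr (0.282), which encodes the tricellular junction protein angulin-1, and Cds1 (0.311), and Ocln to Casp14 (0.302), a protease of the cornifying layers. Tjp3 was nearest to Acad9 (0.216) and Srcin1 (0.237), and Cgn to Ifi30 (0.186) and Clmn (0.195). Cldn3 was nearest to Krt18 (0.208) and Ppbp (0.239), and Cldn7 to Krt18 (0.190) and Msln (0.201), with Krt18 and Msln high in KO replicate 4 as given above. Cldn3 and Cldn7 were also close to each other (0.244), with Cldn7 at rank 4 of all genes compared with Cldn3. Among the members Cgn was nearest to Cldn1 (0.303), at rank 109 of all genes, while Cldn1 was at rank 33 for Cgn. The nearest member was at rank 23 for Cldn4, 24 for Tjp3, 29 for Ocln, 139 for F11r and 518 for Tjp1. All these genes share the same libraries, depth and content of epidermis.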

How the data were processed

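Poly(A) RNA libraries from E18.5 dorsal skin were deposited by the authors as raw counts, whole numbers per gene symbol for 24 libraries. The submitters' processing notes name STAR and HTSeq, with no version, and the human build hg19, which does not match the mouse symbols. The annotation and the use of strand are not given in the sources used here, so reads of overlapping genes cannot be told apart. Genotypes came from the labels, and libraries sharing a title number were summed to 15 columns, numbered 1 to 5 within a genotype by title number.

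Genes kept by filterByExpr went, with TMM factors, into edgeR 4.0.16 (quasi-likelihood, robust, all 3 genotypes in one fit, R 4.3.3), with Benjamini-Hochberg adjustment over 17094 genes and calls at an adjusted p not above 0.1. CPM used TMM-adjusted library sizes. Exon lengths were from GENCODE vM21 (GRCm38) and promoters from RefSeq (9 of 9 genes matched). Alternatives were DESeq2 1.42.0, limma-voom (limma 3.58.1), RLE factors, other filters, 1 title format alone, covariates and left-out columns. Where 200 genes were given a 4-fold change in simulated KO counts, edgeR in KO vs WT recovered 193 with 4 false calls among 16934 genes. The members other than Cldn3 and Cldn7 changed by 1.19-fold (Cgn) to 1.31-fold (F11r) in KO vs WT. Recovery of changes of that size was not tested.

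The members and lists were chosen with earlier results of these data known. Beyond the members, genes were named when called in any comparison, or when among the 6 pathway genes with the largest fold change in KO vs WT at an unadjusted p under 0.05 and a mean of 20 or more counts. Cldn9, Arhgef2 and the genes shown for KO replicate 4 were named after their values were seen. A few single-gene results are not reported here.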

Additional observations from a re-analysis of the deposited data

Results flagged for a closer look

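In groups of 5 columns, the gap between the extreme column and its neighbour, as a share of the group's range, was compared with Dixon's critical value of 0.71. Of 51 groups tested 6 exceeded it, and for independent groups chance gives about 1 in 20, or 2.55. The groups share the same columns, and all 6 came from KO replicate 4 or WT replicate 4. The genes beyond the members were also named for their values, so these numbers do not measure an excess over chance. KO replicate 4 was the high column for Cldn3 (0.898), Cldn7 (0.966) and Cgnl1 (0.723) in KO. WT replicate 4 was the high column for Tjp1 (0.749), Cgn (0.774) and Pard6b (0.765) in WT. The cause was not tested for either column.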

How the results depend on the processing

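No paired analysis was possible because each title number occurs in a single genotype. In KO vs WT, members called (0) became 1 with DESeq2 and 1 with WT replicate 2 as separate columns, and 0 to 3 with a column left out, the 3 without WT replicate 4 and 2 without KO replicate 5. In KO vs HET they were 0 to 1, the 1 without KO replicate 5. In HET vs WT they were 0 under all 28 alternatives. Leaving out WT replicate 4 and KO replicate 2 together, an alternative chosen after seeing the data, gave 1 member called in KO vs WT (F11r, log2 fold change 0.45, adjusted p = 0.0980), 4 other pathway genes and 900 genes in all, 206 genes in all in KO vs HET, and HET vs WT fold changes reversed for Cgn (0.080) and F11r (0.090). The count of other pathway genes called in KO vs WT (1) became 3 with no filter, 2 with RLE factors, 10 with DESeq2, 2 with limma-voom, 0 in the first title format alone and 9 with WT replicate 2 as separate columns. It was 1 to 15 with a column left out (15 without WT replicate 4, 10 without KO replicate 5, 5 without KO replicate 3 and 3 without HET replicate 4). In KO vs HET that count (1) became 7 with DESeq2 and 0 with only both genotypes compared, in the first title format, and with the epithelial or length covariate, and it was 0 to 5 with a column left out. Over all genes, the calls in KO vs WT (197) ran from 3 in the first title format to 1878 without KO replicate 5, with 1451 by DESeq2 and 494 by limma-voom, those in KO vs HET (57) from 3 to 940, and those in HET vs WT from 0 to 3.

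Reversed in KO vs WT was Cgn (-0.21, epithelial covariate). With a column left out, Cldn3 ran from -0.060 to 1.80, Cldn7 from -0.052 to 1.17 and Cgn from -0.043 to 0.51. HET vs WT reversed for Tjp1 with no filter (-0.0037), in the first title format for Cldn1 (-0.11), Cldn3 (0.0062), Cldn4 (0.019), Tjp1 (-0.22) and F11r (0.0056), with WT replicate 2 as separate columns for F11r (0.030), with the Y-linked covariate for Cldn1 (-0.017), Tjp1 (-0.022) and Tjp3 (-0.00043), and with the epithelial covariate for F11r (0.015). With a column left out, HET vs WT ran from -0.061 to 0.10 for Cldn1, -0.23 to 0.024 for Cldn7, -0.058 to 0.13 for Tjp1, -0.033 to 0.11 for Tjp3, -0.29 to 0.079 for Cgn and -0.063 to 0.090 for F11r. KO vs HET reversed for Cldn3 in the first title format (-0.0031) and with the epithelial covariate for Ocln (-0.086), Tjp3 (-0.050) and Cgn (-0.10). With the longest transcript as length, WT levels moved to 40.9 CPM per kb for Cldn1, 0.691 for Cldn7 and 15.2 for Tjp3. Requiring a mean of 50 counts dropped Cldn3 and Cldn7. The cause of these shifts was not tested. Sampling noise limits Cldn3 and Cldn7, with 6 to 34 counts in every column but KO replicate 4.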

Other observations

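The mesothelial gene Upk3b, named after its values were seen, was at 0.948 to 2.26 CPM in the 5 WT columns, at 0.0601, 0.258, 0.383 and 0.0952 CPM in KO replicates 1, 2, 3 and 5, and at 22.7 CPM in KO replicate 4. The values in those other KO columns were near the floor, and the share of all genes with such a pattern was not computed. The mesothelial list as a whole summed to 21.7 to 36.1 CPM in the KO columns other than replicate 4, and to 24.1 to 28.5 CPM in WT. Krt23, from the list of periderm markers (the outer layer of embryonic skin), was at 52.0, 228, 44.0, 132 and 135 CPM in KO replicates 1 to 5 and at 171 to 286 CPM in WT (log2 fold change -0.84, adjusted p = 0.240, edgeR). The list did not move alike: 3 of its 5 genes were positive in KO vs WT, with a median log2 fold change of 2.54. At an unadjusted p under 0.05 by edgeR 3 were higher and 1 lower, and 0 were called. The 3 positive genes were Krt8, Krt18 and Krt19, given above as high in KO replicate 4, so this median rested on that column. With Krt7 they summed to 414 CPM there, at most 16.7 CPM in the other KO columns and 13.4 to 26.3 CPM in WT. The median without KO replicate 4 is not given here. Hair follicle and endothelial marker lists had median log2 fold changes of 0.11 and 0.05 in KO vs WT, and 0 genes of either were called by edgeR, DESeq2 or limma-voom or had an unadjusted p under 0.05.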
